A study of Homo sapiens with 4 samples.

Results

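The genes described here are 34 genes of the endoplasmic reticulum (ER) that fold, retain and dispose of secretory proteins or that signal when folding fails. They were taken by name from the array's gene annotation, and where a gene had several probes, the brightest by mean log2 signal over the arrays stood for it. All 34 were found among 43310 gene names with a value on all 4 arrays, and all 34 were well above background on all 4, so none was lost to a filter on dim probes.

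RNA came from 2 human cancer cell lines, HCT116 (colorectal cancer) and A549 (lung cancer), each transfected through the lipid reagent Dharmafect1 with either NC1, a negative control RNA, or the microRNA miR-891b. The series deals with PSAT1 and extracellular vesicle secretion in cancer. Each line gave 1 NC1 array and 1 miR-891b array, so a difference within a line has no replicate check and no test. The transfected dose and the time of harvest are not given in the labels, and no untransfected cells were among the arrays.

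Secretory and membrane proteins enter the ER through the SEC61 channel, fold there with the help of chaperones and disulfide isomerases, and are sent back to the cytosol for degradation by the proteasome when folding fails. An excess of unfolded protein draws the chaperone HSPA5 (BiP) away from the sensors ERN1 (IRE1), EIF2AK3 (PERK) and ATF6, which starts the unfolded protein response. ERN1 splices the mRNA of the transcription factor XBP1, EIF2AK3 slows translation and favours ATF4, and ATF6 is cut in the Golgi to release a transcription factor. ATF6 and spliced XBP1 act on promoters of chaperone and degradation genes, many of which hold an ER stress element. Tumour cells often carry a raised level of this response.

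The microRNA itself is a short RNA whose seed, bases 2 to 8, pairs with target transcripts. Its mature sequence in RefSeq (GRCh38.p14, chrX:146001100-146001121, minus strand) is shown with the seed in capitals, since it is the RNA whose transfection was compared with NC1.
hsa-miR-891b: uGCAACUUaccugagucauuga
The DNA letters that pair with this seed, AAGTTGC, were in 229 of 58201 gene probes (0.393%) and in 0 of the 47 probes for the 34 genes. A probe samples 60 bases of a transcript, so this count says nothing about the rest of the transcript.

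Levels are log2 processed signals minus the array's 75th percentile, so 0 is the signal that 25% of gene probes exceeded. Where a pair of levels is given for a line, NC1 comes first. A change is the miR-891b level minus the NC1 level, and is counted where it reached 2-fold or, as a smaller size, 1.5-fold. Levels of different genes come from different probes and were not compared. The spread between repeated spots of a probe gave a median SD of the change of 0.061 in HCT116 (276 probes) and 0.071 in A549 (287 probes), which covers the spots only.

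In A549, HSPA5, HYOU1, CALR and all 5 disulfide isomerases among the 34 were at least 1.5-fold higher with miR-891b, while calnexin (CANX) was lower. Of the 34 genes, 26 had a change above 0 in A549 (76.5%, beside 44.4% of 21336 genes measured in that line). The median of the 34 was 0.43, beside a median of -0.059 over all 21336. HSPA5 alone was at least 2-fold higher (1 of 34, 2.94%, where 4.01% of all genes were called), and CANX alone was at least 2-fold lower (1 of 34, where 5.57% were). At 1.5-fold, 14 of the 34 were higher (41.2%, beside 11.1% of all genes) and CANX was the only one lower (2.94%, beside 15.3%). The share past 2-fold was near or below that of all genes, whereas the share past 1.5-fold upwards was above it. The genes were listed with earlier results of these arrays known, so these shares are a description. With quantile normalization 9 of the 34 were at least 2-fold higher (4.66% of all genes), and 8 with normexp before it (1.57%). Under the latter HYOU1 (0.39) and EIF2AK3 (0.50) no longer reached 1.5-fold.

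In HCT116 the same genes lay slightly below their controls. Of the 34, 28 had a change below 0 and 6 above it, with a median of -0.22, beside -0.041 over 19105 genes, of which 55.5% were below 0. The median was -0.12 with 9 above 0 under normexp with quantile normalization, and -0.15 with 11 above 0 under quantile normalization. None was 2-fold lower or higher, where 0.843% and 1.16% of all genes were. At 1.5-fold, EDEM1 and CREB3L2 were lower (2 of 34, 5.88%, beside 5.65% of all genes) and none was higher (beside 3.91%). The HCT116 share was at the background, and normexp with quantile normalization left 0 of the 34 lower by 1.5-fold. The changes ranged from -0.85 to 0.19.

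**Figure D1:**
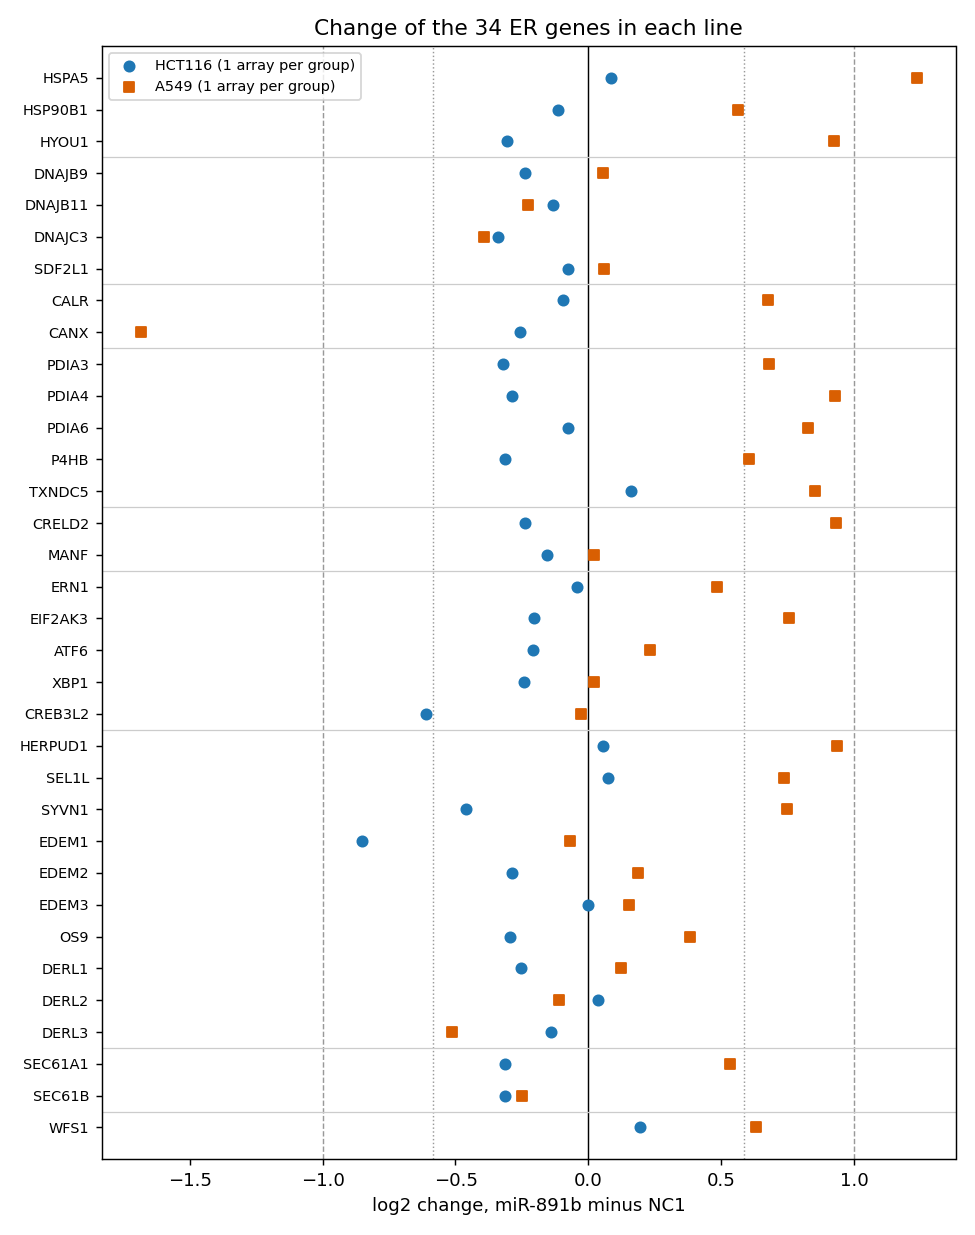
Log2 change, miR-891b minus NC1, of each of the 34 ER genes in HCT116 (circles) and A549 (squares), grouped by role from chaperones at the top to WFS1 at the bottom, each point from 1 array per group. Dotted lines mark 1.5-fold and dashed lines 2-fold: HSPA5 (1.23) and CANX (-1.68) in A549 are the only points past 2-fold.

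**Figure D2:**
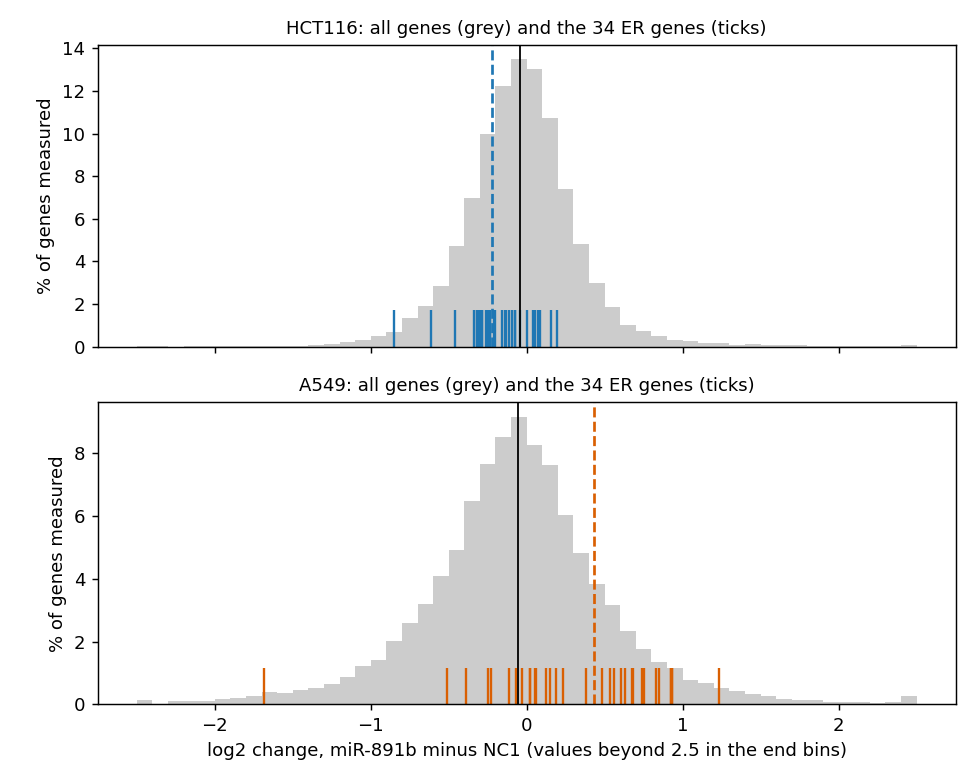
Histograms of the log2 change over all genes measured in each line, in percent of genes, with ticks for the 34 ER genes, a solid line at the median of all genes and a dashed line at the median of the 34. In A549 the dashed line lies at 0.43 and the solid line at -0.059, and in HCT116 they lie at -0.22 and -0.041.

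On the scale used for the levels, the A549 shift was opposite in sign to that of bright genes as a whole. Medians by level were computed on that scale only. Quantile normalization raised the A549 changes of bright ER genes, among them HSP90B1 and XBP1. Whether the median of all bright genes stays below 0 under it was not tested. Among A549 genes with a mean level of 6 or more, the median change was -0.30 over 1043 genes and 2.88% were at least 1.5-fold higher, whereas the 8 ER genes in that range had a median of 0.31 and 3 of them were. Between 4 and 6, the median was -0.18 over 2002 genes, and 0.53 over the 8 ER genes there. In HCT116 the brightest genes had a median of -0.11, against -0.14 for the 8 ER genes. At levels from 4 to 6 the HCT116 median was -0.039 over 2002 genes, against -0.26 for the 8 ER genes there. From 2 to 4 it was -0.038 over 4041 genes, against -0.17 for 14 ER genes.

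HSPA5, the Hsp70 chaperone of the ER lumen and the usual marker of the unfolded protein response, had levels of 3.54 and 3.62 in HCT116 and 2.97 and 4.20 in A549. Before scaling, its processed signals were 637 and 701 in HCT116 and 585 and 1367 in A549. A549 NC1 was the lowest of the 4 arrays and A549 miR-891b the highest, with the HCT116 arrays between them. The A549 change was 1.23 (2.35-fold, at percentile 97.6 of all A549 changes) and the HCT116 change was 0.084 (probe at chr9:127997149-127997208, hg19).

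HSP90B1 (GRP94), the Hsp90 chaperone of the lumen, had levels of 8.59 and 8.47 in HCT116 and 7.86 and 8.42 in A549. Its A549 change was 0.56, just under 1.5-fold, and a second probe changed by 0.40. HYOU1, a large Hsp70 relative that acts as a nucleotide exchange factor for HSPA5, had levels of 0.94 and 0.63 in HCT116 and -1.23 and -0.31 in A549. HYOU1 was the member with the largest shortfall in A549 NC1 relative to HCT116 NC1, and the A549 change of 0.92 closed part of it.

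None of the 4 partners of these chaperones reached 1.5-fold in A549. DNAJB9 (ERdj4), a J protein that helps HSPA5 to hold ERN1 inactive, changed by 0.055 in A549, and SDF2L1, which sits with HSPA5 and DNAJB11 in a folding complex, by 0.058. The J protein DNAJB11 changed by -0.23 and DNAJC3 (p58IPK), a J protein also known as an inhibitor of EIF2AK3, by -0.39. In HCT116 all 4 lay below 0, from -0.34 to -0.075, and none reached 1.5-fold. With quantile normalization, DNAJB9 and SDF2L1 changed by 0.21 and 0.37 in A549, and SDF2L1 turned to 0.072 in HCT116. SDF2L1 levels were 8.09 and 8.01 in HCT116 and 6.51 and 6.57 in A549, lower on both A549 arrays than on both HCT116 arrays.

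The lectin chaperones, which bind the trimmed glucose on new glycoproteins, moved apart. CALR (calreticulin), the soluble one, had levels of 8.89 and 8.79 in HCT116 and 8.04 and 8.71 in A549, with an A549 change of 0.68. CANX (calnexin), its membrane-bound relative, had levels of 3.16 and 2.90 in HCT116 and 3.51 and 1.83 in A549. For CANX, A549 miR-891b was the lowest of the 4 arrays and A549 NC1 the highest, with a change of -1.68 (0.311 times the control, percentile 1.16; probe at chr5:179137006-179137065, hg19). A second CANX probe (chr5:179158058-179158117, hg19) had levels of 0.98 and -0.57 in A549, a change of -1.55. In HCT116 the CANX probes changed by -0.26 and -0.70, so both were lower with miR-891b in both lines.

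All 5 disulfide isomerases, which form and reshuffle cysteine bridges, were at least 1.5-fold higher in A549. PDIA4 (ERp72) had levels of 4.72 and 4.43 in HCT116 and 4.0 and 4.93 in A549, a change of 0.93. TXNDC5 (ERp46) had levels of 4.54 and 4.70 in HCT116 and 4.04 and 4.89 in A549, a change of 0.85. PDIA6 (P5), which can also attenuate ERN1, had levels of 3.50 and 3.42 in HCT116 and 4.05 and 4.87 in A549, a change of 0.83. In each of these genes A549 miR-891b was the highest of the 4 arrays. PDIA3 (ERp57), the partner of the lectin chaperones, had levels of 5.63 and 5.31 in HCT116 and 5.06 and 5.74 in A549, and its A549 change was 0.68. P4HB, the founding protein disulfide isomerase and a subunit of prolyl 4-hydroxylase, had levels of 9.26 and 8.95 in HCT116 and 8.45 and 9.06 in A549, with an A549 change of 0.60. P4HB was highest in HCT116 NC1, and the A549 change placed miR-891b cells between the HCT116 arrays. In HCT116 the isomerases changed by -0.32 (PDIA3) to 0.16 (TXNDC5), with 4 of the 5 below 0.

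**Figure D3:**
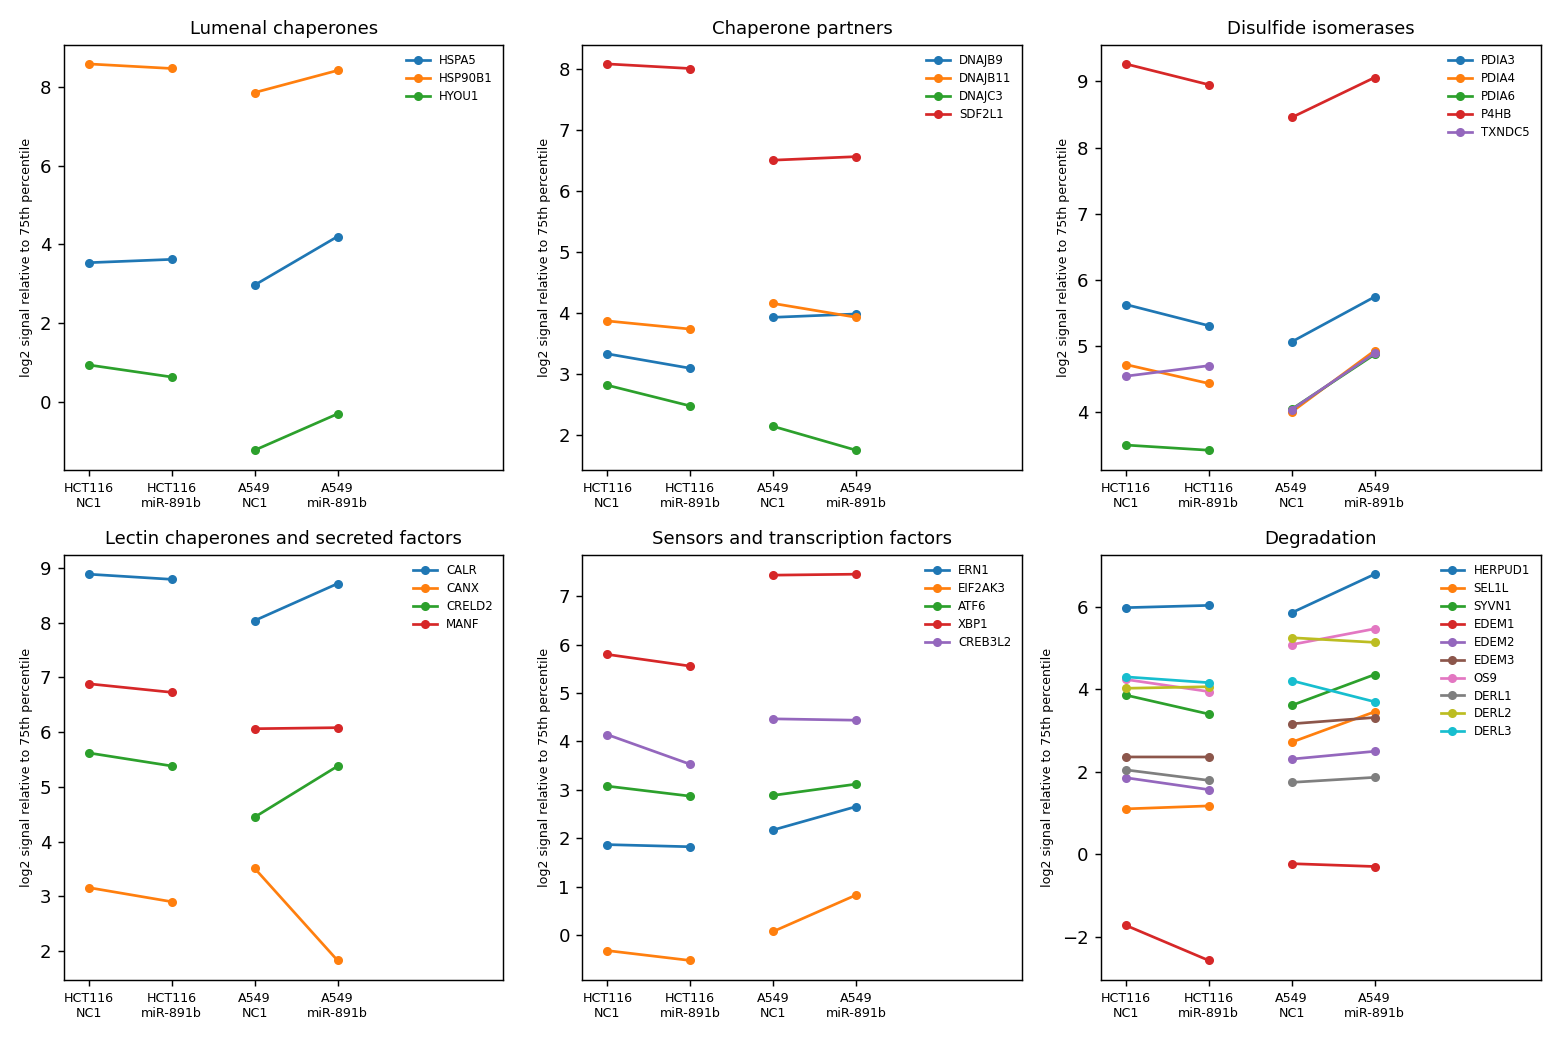
Log2 signal relative to the array's 75th percentile on each of the 4 arrays, for 31 of the 34 genes in 6 panels by role, with a line joining NC1 to miR-891b within a cell line; SEC61A1, SEC61B and WFS1 are not drawn. In A549 the isomerase lines all rise and CANX falls from 3.51 to 1.83, while XBP1 lies at 7.44 and 7.46 on this scale.

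CRELD2 and MANF are small lumenal proteins that ER stress is known to induce and release. CRELD2 levels were 5.62 and 5.38 in HCT116 and 4.45 and 5.38 in A549, with an A549 change of 0.93 that brought miR-891b cells level with HCT116 miR-891b. MANF levels were 6.88 and 6.73 in HCT116 and 6.06 and 6.08 in A549, a change of 0.019 in A549. CRELD2 was past 1.5-fold and MANF was not. The MANF change in A549 was larger with quantile normalization (0.30) and with normexp before it (0.35).

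Among the sensors, EIF2AK3 levels were -0.32 and -0.52 in HCT116 and 0.074 and 0.83 in A549, with an A549 change of 0.75. ERN1 changed by 0.48 in A549 and -0.044 in HCT116, and ATF6 by 0.23 and -0.21. A second ERN1 probe changed by 0.28 in A549 and 0.17 in HCT116. All sensors lay above their control in A549, and EIF2AK3 alone reached 1.5-fold.

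XBP1, the transcription factor activated by ERN1, was measured on repeated spots. Its levels were 5.80 and 5.56 in HCT116 and 7.44 and 7.46 in A549, with changes of -0.24 ± 0.045 (SD over 8 spots) in HCT116 and 0.020 ± 0.071 (SD over 9 spots) in A549. The SD covers spots within arrays only. Around the most affected XBP1 spot, 25.0% of the neighbouring spots dim elsewhere were bright on HCT116 miR-891b. The A549 change depended on the scaling, at 0.43 with quantile normalization and 0.39 with normexp before it. The probe does not separate spliced from unspliced XBP1 mRNA, so the activity of ERN1 was not read here. CREB3L2 (BBF2H7), a membrane-bound transcription factor related to ATF6, had levels of 4.14 and 3.53 in HCT116 and 4.47 and 4.44 in A549. Its HCT116 change of -0.61 was past 1.5-fold, and a second CREB3L2 probe changed by -0.23.

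Degradation genes were mixed, with 3 of 10 at least 1.5-fold higher in A549. HERPUD1, a membrane scaffold of the degradation complex, had levels of 5.98 and 6.03 in HCT116 and 5.86 and 6.79 in A549, a change of 0.93. SEL1L and SYVN1 (HRD1) form the core ubiquitin ligase of that complex. SEL1L levels were 1.1 and 1.18 in HCT116 and 2.72 and 3.46 in A549, and SYVN1 levels were 3.86 and 3.40 in HCT116 and 3.61 and 4.36 in A549, with A549 changes of 0.74 and 0.75. Other SEL1L probes changed by 0.92 and 0.69 in A549. All 3 genes were highest in A549 miR-891b. SYVN1 was also among the lower genes of HCT116, with a change of -0.46.

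None of the remaining degradation genes reached 1.5-fold in A549. EDEM1, EDEM2 and EDEM3 trim mannose from misfolded glycoproteins, and OS9 is a lectin that reads the trimmed sugar. Their A549 changes were -0.069, 0.19, 0.15 and 0.38. EDEM1 levels were -1.72 and -2.57 in HCT116 and -0.22 and -0.29 in A549, and its HCT116 change of -0.85 was the lowest of the 34 in that line. With normexp and quantile normalization it was -0.17, and CREB3L2 was lower (-0.47). The derlins DERL1, DERL2 and DERL3 belong to the channel through which clients leave the ER. They changed by 0.12, -0.11 and -0.51 in A549 and by -0.25, 0.037 and -0.14 in HCT116.

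SEC61A1 and SEC61B are the pore subunit and a small subunit of the translocation channel. SEC61A1 levels were 3.85 and 3.53 in HCT116 and 2.33 and 2.86 in A549, and SEC61B levels were 7.01 and 6.69 in HCT116 and 7.10 and 6.85 in A549. In HCT116 both were lower by nearly the same amount (-0.31 and -0.32), and in A549 their changes were 0.53 and -0.25. SEC61B turned to 0.096 in A549 with quantile normalization and to 0.089 with normexp before it. WFS1 (wolframin), an ER membrane protein linked to calcium balance and to control of ATF6, had levels of 2.59 and 2.79 in HCT116 and 1.88 and 2.51 in A549. Its A549 change was 0.63, and at 0.19 its HCT116 change was the highest of the 34.

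Known stress motifs were looked for in the promoters of these genes, windows of 300 bases in RefSeq (GRCh38.p14) from 250 before to 50 after a start site, on both strands. The ER stress element (ERSE) is CCAAT and, 9 bases further, CCACG, and is bound by ATF6 with NF-Y; ERSE-II is ATTGG, any base, then CCACG; the unfolded protein response element (UPRE) was searched as TGACGTGG. Windows were found for 31 of the 34 genes, all but PDIA3, DERL1 and DERL3. ERSE was in 7 of these 31 (22.6%), beside 0.0916% of 27305 genes, and ERSE-II in 3 (9.68%), beside 0.0696%. UPRE was in HYOU1 and TXNDC5 (6.45%, beside 0.927%), and the HYOU1 match overlaps its upstream ERSE-II. The list was made of genes of this response, many of which are known to hold an ER stress element. Shares above those of all genes follow from that choice and were not a test. A match is a description of the letters and not a bound site.

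The ERSE and ERSE-II matches are shown because HSPA5, the member with the highest A549 change, and CANX, with the lowest, both hold one. Letters fixed by the motif are in capitals, written along the gene's own strand.
HSPA5: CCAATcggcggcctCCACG
HSP90B1: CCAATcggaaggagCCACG
HSP90B1: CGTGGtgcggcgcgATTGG
CALR: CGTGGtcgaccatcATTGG
CANX: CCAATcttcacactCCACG
PDIA6: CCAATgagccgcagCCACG
CRELD2: CGTGGcgaactcggATTGG
XBP1: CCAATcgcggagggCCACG
HERPUD1: ATTGGgCCACG
SDF2L1: CGTGGaCCAAT
HYOU1: CGTGGtCCAAT
HYOU1 holds these ERSE-II letters at a second place too. The HSPA5 match lies at chr9:125241391-125241409 and the CANX match at chr5:179698778-179698796 (GRCh38.p14).

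The 250 bases before the start site follow for the gene with the highest change, for HSP90B1 with matches in both orientations and for HERPUD1 with ERSE-II, at chr9:125241344-125241593 (minus strand), chr12:103930160-103930409 and chr16:56931892-56932141 (plus strand), with the matches in capitals.
HSPA5: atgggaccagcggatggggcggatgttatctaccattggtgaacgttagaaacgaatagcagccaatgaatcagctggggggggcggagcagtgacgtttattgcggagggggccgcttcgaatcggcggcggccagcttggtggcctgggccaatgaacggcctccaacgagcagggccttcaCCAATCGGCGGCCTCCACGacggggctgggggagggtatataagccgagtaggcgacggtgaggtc
HSP90B1: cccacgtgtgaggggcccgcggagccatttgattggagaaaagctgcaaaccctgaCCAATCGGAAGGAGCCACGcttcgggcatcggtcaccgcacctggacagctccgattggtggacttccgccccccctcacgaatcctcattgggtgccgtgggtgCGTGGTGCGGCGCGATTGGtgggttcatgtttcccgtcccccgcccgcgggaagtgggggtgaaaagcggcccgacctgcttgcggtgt
HERPUD1: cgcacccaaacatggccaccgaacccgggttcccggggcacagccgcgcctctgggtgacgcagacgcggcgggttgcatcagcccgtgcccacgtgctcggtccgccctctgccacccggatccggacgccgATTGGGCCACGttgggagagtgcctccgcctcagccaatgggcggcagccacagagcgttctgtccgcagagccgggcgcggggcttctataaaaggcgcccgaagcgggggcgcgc

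The 10 genes with ERSE or ERSE-II had a median A549 change of 0.75, with 9 above 0 and 6 at least 1.5-fold higher. The 21 genes with a window and neither match had a median of 0.23, with 15 above 0 and 7 at least 1.5-fold higher. HCT116 medians were -0.10 and -0.24. Of all genes measured in A549, 44.4% were above 0 and 11.1% were at least 1.5-fold higher. Within the 10, the A549 changes of XBP1 (0.020), SDF2L1 (0.058) and HSP90B1 (0.56) were under 1.5-fold and CANX was past 2-fold lower. With quantile normalization XBP1 and SDF2L1 were at 0.43 and 0.37, still under 1.5-fold, and HSP90B1 was at 1.08.

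**Figure D4:**
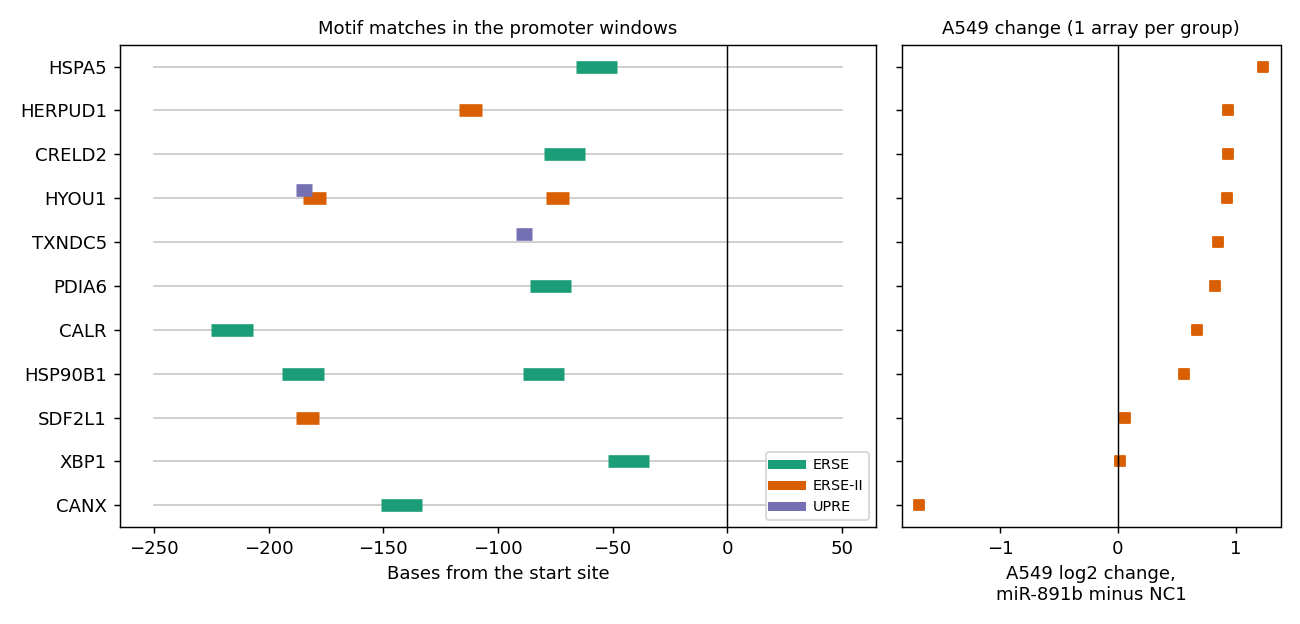
Left, matches of ERSE, ERSE-II and UPRE in the promoter windows of the 11 genes that hold one, in bases from the start site at 0, for 1 window per match; right, the log2 change of the same genes in A549 from 1 array per group, ordered by it. In the windows drawn, matches lie before the start site from HSPA5 (1.23) at the top to CANX (-1.68) at the bottom; from another CANX start site the same match spans bases -9 to 9.

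The lines were also compared under the control transfection. Between the NC1 arrays, 4 of the 34 were at least 2-fold lower in A549 than in HCT116 (11.8%, beside 16.2% of 19218 genes) and 4 were at least 2-fold higher (11.8%, beside 11.1%). The lower ones were HYOU1 (-2.17), SDF2L1 (-1.58), SEC61A1 (-1.52) and CRELD2 (-1.17). The higher ones were XBP1 (1.64), SEL1L (1.62), EDEM1 (1.49) and DERL2 (1.22). All of the lumenal chaperones and 4 of the 5 isomerases were lower in A549 NC1. Each line had its own slide, so line and slide cannot be told apart.

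On the miR-891b arrays the same differences were shifted towards A549. The median A549 minus HCT116 difference over the 34 was -0.16 on the NC1 arrays and 0.34 on the miR-891b arrays, beside -0.10 and -0.19 over all genes measured. On the NC1 arrays 19 of the 34 were lower in A549 (55.9%, beside 55.0% of all genes). Of these 19, 9 were higher in A549 on the miR-891b arrays, among them HSPA5 (-0.57 and 0.58), PDIA4 (-0.72 and 0.50) and SYVN1 (-0.25 and 0.96). The share of all such genes that changed side was not computed, so the 9 are a description only. HSP90B1 went from -0.73 to -0.050 and CALR from -0.85 to -0.078, which left the lines nearly level. CANX went the other way, from 0.35 to -1.07. These differences use the same 4 arrays as the changes above and are another view of them.

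**Figure D5:**
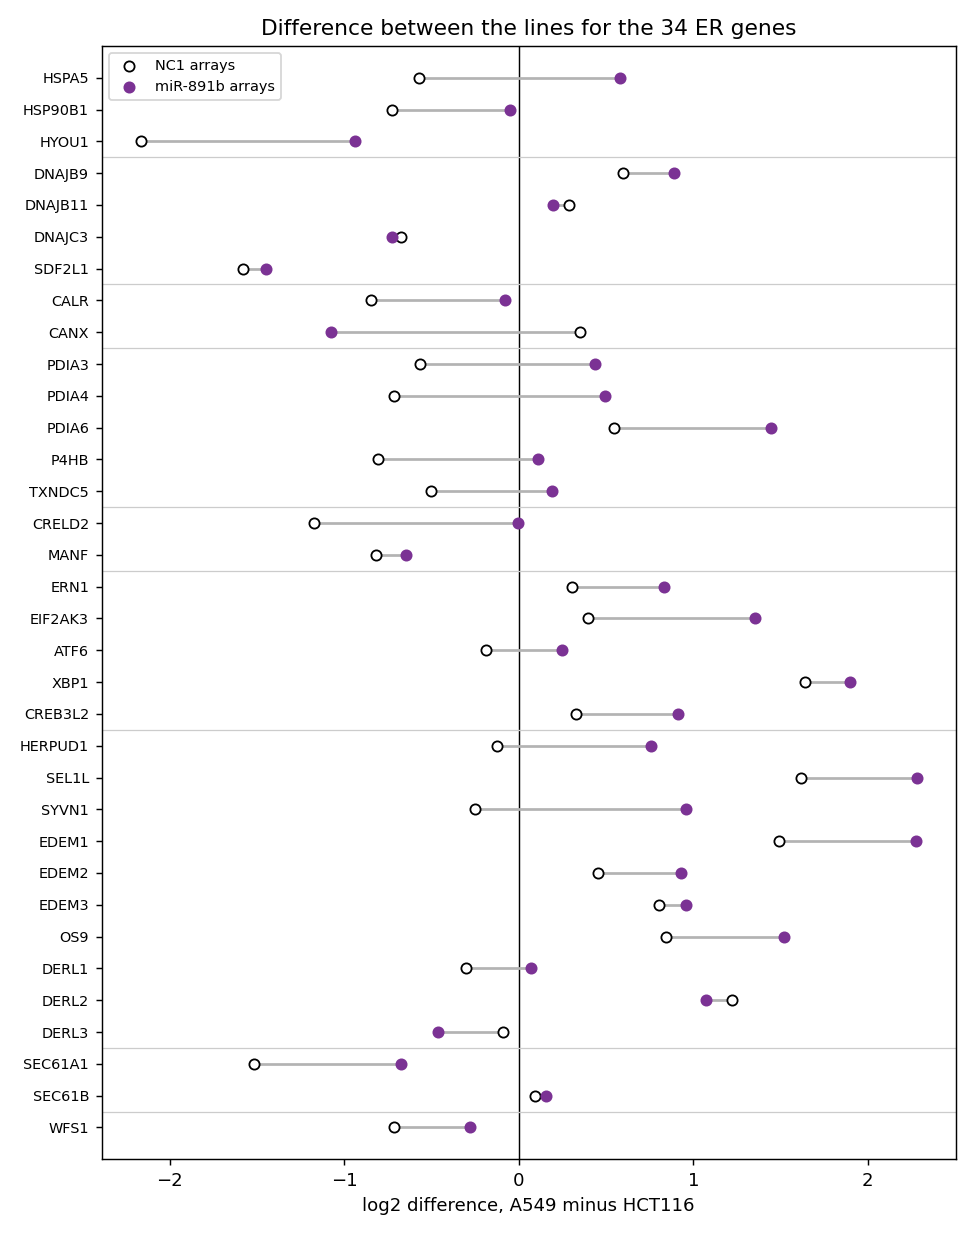
Log2 difference A549 minus HCT116 for each of the 34 genes on the NC1 arrays (open circles) and on the miR-891b arrays (filled circles), each from 1 array per line, joined by a grey line. HYOU1 moves from -2.17 to -0.94 and HSPA5 crosses 0, while CANX moves from 0.35 to -1.07.

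A limma model over all 4 arrays, with additive terms for line and miR-891b, treated the lines as replicates and left 1 residual degree of freedom. It fits 1 common miR-891b change, so a difference in change between the lines counts as residual spread. A change in A549 alone could therefore not be tested by it. None of the 34, and 0 of 22712 genes tested (0%), reached an adjusted p of 0.05 in limma. Unadjusted, 1214 of all genes and 0 of the 34 were under 0.05. CANX came nearest, with a mean change of -0.97 ± 0.42 (SE), lower in 2 of 2 lines, and an adjusted p of 0.793 by limma. HSPA5 had a mean change of 0.66 ± 0.36 (SE), higher in 2 of 2 lines, with the same adjusted p from limma. These values measure only the spread between these 4 arrays, and nothing in the labels says which cultures were separate.

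Other genes of the pathway, 62 in all, were named from general knowledge and all were measured in both lines. In A549, 8 of the 62 were at least 1.5-fold higher (12.9%, close to the 11.1% of all genes) and 2 were lower (3.23%, beside 15.3%). The A549 median of the 62 was 0.27, beside -0.059 over all genes. Of the 62, 43 were above 0 in A549, where 44.4% of all genes were. Past 2-fold, 4 were higher (6.45%, beside 4.01% of all genes): DDIT3 (CHOP), the death-linked factor of the EIF2AK3 branch (1.56), KDELR3, a receptor that returns escaped ER proteins (1.36), SRPR, a receptor that docks translating ribosomes at the ER (1.21), and PDIA5, a further isomerase (1.06). ERO1L, the oxidase that recharges the isomerases, was the only one of the 62 at least 2-fold lower (-1.74; 1.61%, beside 5.57% of all genes). Unlike PDIA5, other genes of the isomerase family in this list did not reach 1.5-fold in A549. They were TXNDC11 (0.45), DNAJC10 (0.38), ERP44 (0.28), ERP29 (-0.058), TXNDC12 (-0.13) and TMX1 (-0.28). In HCT116 none of the 62 was past 2-fold, and ERO1L (-0.67), ERP29 (-0.67) and DDIT3 (-0.61) were at least 1.5-fold lower (4.84%, beside 5.65% of all genes), with a median over the list of -0.17. Of the remaining genes downstream of EIF2AK3, ATF4 changed by -0.48 in A549 and -0.36 in HCT116, TRIB3 by 0.11 and -0.25, and PPP1R15A by 0.51 and -0.018. Patches of stray signal, where at least 10% of the neighbouring spots dim elsewhere were bright, held the ERO1L spot on both miR-891b arrays (23.1% in HCT116, 12.9% in A549), the DDIT3 spot on HCT116 miR-891b (12.1%) and the SRPR spot on HCT116 NC1 (13.4%). Their part in these values was not tested.

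Several of the 34 genes had more than 1 probe. In A549, 9 of 11 additional probes well above background on both arrays changed in the direction of the chosen probe, with a median absolute difference of 0.16 between them. In HCT116, where changes were small, 6 of 10 did. The largest disagreement was an EDEM3 probe that changed by 2.36 in HCT116, against -0.00092 for the chosen probe, where 11.4% of such neighbouring spots were bright on the miR-891b array. Spots of 4 chosen probes (PDIA3, XBP1, DERL1 and DERL2) lay in such patches on HCT116 miR-891b and on no other array. On the A549 arrays none of the 34 chosen probes lay in one.

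The arrays as a whole had 26010 to 29258 of 58201 gene probes well above background and no saturated gene spot. All 3 markers of HCT116 were brighter on the HCT116 arrays, and all 4 of A549 on the A549 arrays. The A549 marker AKR1B10 went from -2.29 to 2.18 in HCT116 with miR-891b, and the summed signal of the A549 markers there from 229 to 420. The other A549 markers were lower in HCT116 with miR-891b: NQO1 went from 1.92 to 1.42, AKR1C1 from -2.86 to -2.94 and ALDH1A1 from -4.69 to -5.17. The number of A549 markers well above background in HCT116 went from 3 to 2. Of 5 fibroblast markers, 2 were well above background on the HCT116 arrays and 3 on the A549 arrays, and COL1A2 and DCN were on none. Their summed signal ran from 122 to 143 in HCT116 and was 291 with NC1 and 768 with miR-891b in A549. There LUM went from 1.03 to 3.17, COL1A1 from 0.60 to 0.0088 and PDGFRB from -1.85 to -1.89. Of 2 leukocyte markers, PTPRC was well above background on all 4 arrays and CD3E on none, with summed signals of 12.8 to 30.8. Whether such cells were present, and any part of theirs in the A549 shift, was not tested.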

How the data were processed

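Total RNA (100 ng) was labelled with Cy3 and hybridised to Agilent 1-colour arrays, per the labels, with 1 array in each of 4 groups taken from the titles. Per the file headers, Agilent Feature Extraction 11.5.1.1 subtracted a background and detrended each array, with probes placed on hg19. Intensity values in the deposited scanner files are linear and not scaled between arrays. The authors' value table is in log2, with its steps not given in the sources used here. Its values had a median absolute difference of 0.0050 to 0.0069 per array from those computed here. The largest difference was 0.11, on HCT116 NC1. The authors' values were used as an alternative.

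Here, spots marked as outliers were left out, log2 processed signals were averaged per probe, and each array's 75th percentile over gene probes was subtracted. Genes counted as measured in a line if well above background with NC1 and with miR-891b. For the additive model, limma 3.58.1 (lmFit, eBayes; R 4.3.3) took genes well above background on at least 2 arrays. Other values came from Python 3.11.15. Stray signal was mapped around each spot (10 rows and 10 columns to each side) as the percent well above background among spots dim elsewhere. The fit and the motif search were tested on simulated data. With 1 array per group, the number of arrays limits the precision.

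All 34 genes were named, and from the 62 other pathway genes those past 2-fold and the EIF2AK3 branch. ERP29 was named after its values were seen, to complete a count. TXNDC11, TXNDC12, TMX1, ERP44 and DNAJC10 were also named after their values were seen, to set other isomerase genes beside those of the 34. The members and lists were chosen with earlier results of these data known; ERSE-II, UPRE, the 1.5-fold counts and the fold changes by level were added after the data were seen. A planned search of protein sequences was not run. Alternatives were quantile normalization alone or after normexp (offset 50), scaling to the median, the authors' values, the mean over probes, no filter on dim probes, and leaving out areas of stray signal.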

Additional observations from a re-analysis of the deposited data

Results flagged for a closer look

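The 34 genes lay on opposite sides of 0 in the lines, with a median of 0.43 in A549 and -0.22 in HCT116, and the median of the A549 change minus the HCT116 change was 0.62. With 1 array in each group, this gap between the lines was not tested. An additional DNAJC3 probe was well above background with miR-891b but not with NC1 in A549, at a level of -3.16, and an additional SEL1L probe was so in HCT116, at -3.07. These probes were not the ones chosen for their genes.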

How the results depend on the processing

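The additive limma model is paired by line, and the labels carry no replicate numbers for another pairing. Quantile normalization moved the bright A549 genes most: 9 of the 34 were then at least 2-fold higher in A549 (4.66% of all genes), and 8 with normexp and quantile normalization (1.57%), against 1 as reported, with CALR, PDIA4, PDIA6, P4HB, TXNDC5, CRELD2 and HERPUD1 passing beside HSPA5 under both. At 1.5-fold in place of 2-fold, 14 were higher in A549 (11.1% of all genes) and 2 were lower in HCT116 (5.65% of all genes). The 14 became 13 to 17 under the other settings. The share of all genes ran from 6.19% with normexp and quantile normalization (15 of the 34) to 13.8% with no filter on dim probes (14). It was 13.0% with quantile normalization (17) and 13.1% with median scaling (16). The 2 HCT116 genes became 0 with normexp and quantile normalization and 1 with quantile normalization, median scaling or the mean over probes. The HCT116 median was -0.12 with normexp and quantile normalization and -0.15 with quantile normalization. The A549 median was 0.60 with quantile normalization and 0.51 outside areas of stray signal, and the median difference between the lines was 0.75 with quantile normalization and 0.53 with the mean over probes. CANX was the only gene 2-fold lower in A549 under each setting run, and its change ran from -1.69 to -1.44. Signs changed under some setting for 6 genes in HCT116 and 5 in A549, none with a reported change over 0.25 in size. The median of all HCT116 genes rose by 0.24 with no filter on dim probes, and the 34 genes kept their values. No gene passed an adjusted p of 0.05 among the 34 with limma under any setting, and 0 or 1 was under 0.05 unadjusted.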

Other observations

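Of the genes outside the 34 whose promoters held ERSE or ERSE-II, 26 were found on the array, and 19 of these were measured in A549 and 21 in HCT116. Their median change was 0.062 in A549, with 11 above 0, and -0.11 in HCT116, with 7 above 0. Of all genes measured, 44.4% were above 0 in A549 and 44.5% in HCT116. FICD, the ER enzyme that attaches AMP to HSPA5 and removes it, changed by 0.67 in A549 and -0.25 in HCT116. NUCB1, a calcium-binding protein of the Golgi, changed by 0.51 and -0.29, and SERP1, a protein of the translocation site, by 0.28 and -0.017. SHCBP1, a gene of dividing cells, was the only one 2-fold lower in A549 (-2.26), where 5.57% of all genes were. CAMTA1 (-0.87), RUVBL2 (-0.78) and EIF2A (-0.75) were also at least 1.5-fold lower in A549. NLRP4 was the only one 2-fold higher in HCT116 (1.99), where 1.16% of all genes were. The choice of these names followed a look at their values.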
